A study of Rattus norvegicus with 241 samples.

Results

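The basal layer of the mammary epithelium was examined in single cells of whole, unsorted mammary glands from Sprague Dawley (SD) rats. A cell was taken as basal when it held at least 5 unique molecular identifiers (UMIs, each standing for 1 captured transcript) summed over the basal keratins KRT14, KRT5 and KRT17, and at most 1 UMI summed over PTPRC, COL3A1 and KIT. PECAM1, the endothelial marker of the same limit, was not analysed here. By this gate 9621 of the 103524 whole-gland cells were basal, and 160052 cells are held in the 39 single-cell tables of the series. The vehicle rats, numbered 1, 2 and 4 by the labels, gave 2330, 1811 and 565 basal cells, and the 6 TGFBRi-treated rats gave 612 to 938. The animals were young virgin females dosed by oral gavage 2 times a day for 10 days from about 24 days of age, with vehicle or with 75 mg/kg of TGFBRi (LY2157299, galunisertib, a small-molecule inhibitor of the kinase of the TGFβ type I receptor), and the glands were taken at day 0 after the last dose. For comparison, basal cells sorted at day 0 from SD rats (3 vehicle, 6 TGFBRi) and from rats of the inbred strain ACI (3 and 3) are used at the end of the account. These virgin females had the same dose for 10 days, and the ACI rats were about 35 days old at its start. No allele or second agent is named for any of these groups. Since the cells were chosen by measured keratin and marker UMIs, those genes are given as a description, and the 6 of them with a row in the tables were left out of the gene tests.

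Basal, or myoepithelial, cells lie between the luminal cells and the basement membrane of the ducts. They are contractile, holding smooth muscle actin and myosin, and squeeze milk out of the gland when oxytocin reaches its receptor on them. They also lay down and adhere to the basement membrane, and they send growth factors and cytokines to their neighbours. The transcription factor p63 (TP63) maintains their identity. TGFβ, released from a latent form in the matrix, binds the type II receptor, which recruits the type I receptor kinase (TGFBR1), and this kinase phosphorylates SMAD2 and SMAD3, which enter the nucleus with SMAD4. SMAD7, SKI, SKIL and PMEPA1 restrain the pathway and are among its usual targets.

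The gate was not pure, and its purity differed between the groups. In the vehicle rats, 11.2, 19.5 and 21.2% of the gated cells (260, 354 and 120 cells) carried at least as many UMIs of the luminal keratins KRT8, KRT18 and KRT19 as of the 3 basal keratins, against 2.73 to 5.12% after TGFBRi (195 cells in all). These 929 cells made up 9.66% of the gate. In the vehicle rats 67.7 to 84.5% of them held fewer than 3 UMIs summed over the contractile genes ACTA2, MYH11 and TAGLN. Of the other gated cells of these rats 0.725 to 4.87% did. After TGFBRi the share among the 929 cells was lower, at most 57.9% in any rat (mean 39.4% ± 12.6, SD, n = 6). KRT17 supplied 82.04 to 88.2% of their basal keratin UMIs with vehicle and 46.4 to 72.9% with TGFBRi, so that these cells differed between the groups. Their median was 9549 to 15493 UMIs per cell in the vehicle rats, where the other gated cells had 4689 to 9187. For this reason the gene tests were repeated over the 8692 cells with more basal than luminal keratin UMIs, called keratin-balanced cells, an alternative chosen after seeing the data. Luminal keratin UMIs of 2 or more were common in the gate in either group, in 77.8 to 92.9% of cells, so that a stricter limit of at most 1 such UMI left 439 vehicle and 752 TGFBRi cells. At the edge of the gate were cells with exactly 5 basal keratin UMIs (146 vehicle, 86 TGFBRi). Their 15 contractile genes, listed below, summed to 2149 (vehicle) and 11716 (TGFBRi) CPM (UMIs scaled to the same total). Cells with 4 basal keratin UMIs, just outside the gate, had 1661 and 7033. No doublet caller was run.

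**Figure D1:**
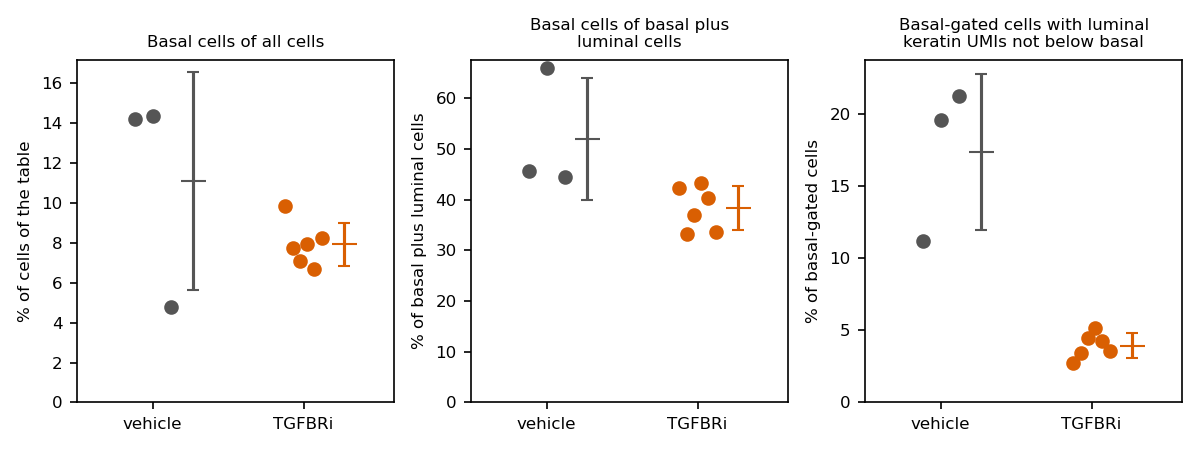
Percent of cells by rat (y axes from 0), for basal-gated cells of all cells, of basal plus luminal cells, and for gated cells whose luminal keratin UMIs were not below their basal keratin UMIs. Points are rats (3 vehicle, 6 TGFBRi) and bars show mean and SD; in the right panel the vehicle rats lie at 11.2 to 21.2% and the treated rats at 2.73 to 5.12%.

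Libraries held 43110875 to 92699378 UMIs, with a median of 5275 to 9914 UMIs and 1751 to 2808 genes per basal cell, and the 2 groups overlapped in these medians. Between any 2 libraries 88 to 284 cell barcodes were shared, 1.11 to 2.51% of the smaller library. Of the cells in the gate, 0.354 to 2.85% had a PTPRC UMI and 0.817 to 2.65% had 2 or more UMIs of endothelial genes. Across genes, rats of the same group correlated at 0.962 to 0.974 (vehicle) and 0.931 to 0.980 (TGFBRi), and rats of different groups at 0.870 to 0.928 (Pearson's r over 10565 genes, which are not independent replicates). The sources used here do not say whether the libraries of both groups were prepared together, so that such a batch and the treatment cannot be told apart.

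Among cells of the vehicle rats, the gated population matched its name by genes the gate did not use. As a description, the 10 genes with the highest ratio of basal to luminal CPM, among 1500 with at least 100 CPM in basal cells, were COL17A1 (a hemidesmosome collagen), IGFBP2, SNAI2 (a transcription factor of basal cells), ACTG2, CNN1 and ACTA2 (smooth muscle contractile proteins), PCP4, AXL (a receptor tyrosine kinase), CXCL14 and SERPINB1A. COL17A1 had 279 CPM in basal and 0.262 CPM in luminal cells, and ACTA2 3777 and 16.1. Luminal cells were those with at least 5 UMIs of KRT8, KRT18 and KRT19 and at most 1 UMI of the basal keratins, 12378 in all. The gate keratins themselves, over all gated cells, ran from 4819 to 5903 CPM in the vehicle rats and from 5076 to 7282 CPM after TGFBRi. KRT14 was at 1101, 1111 and 1390.0 CPM in the vehicle rats and from 1732 to 2343 CPM after TGFBRi, while KRT17 ran from 3251 to 4547 and from 2785 to 4437 CPM. Over the keratin-balanced cells KRT14 had 1315, 1589.7 and 2182 CPM with vehicle and 1897 to 2469 CPM with TGFBRi, groups that overlapped, and KRT17 4539.5 to 5937 and 2985 to 4692 CPM.

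Basal cells formed 14.2, 14.4 and 4.79% of all cells in the vehicle rats and 6.71 to 9.83% (median 7.84%) after TGFBRi. The means were 11.1% ± 5.47 (SD, n = 3) and 7.93% ± 1.09 (SD, n = 6), a difference of -3.18 percentage points that lay within the spread of the vehicle rats (p = 0.167, exact permutation test, two-sided). Vehicle rat 4 moved it most: it was -6.34 points without that rat (exact p = 0.0714), -1.65 without rat 1 and -1.56 without rat 2 (exact p = 0.5 for each). Of basal plus luminal cells, basal cells formed 45.7, 65.9 and 44.5% with vehicle and 33.3 to 43.3% (median 38.6%) with TGFBRi, so that the groups did not overlap. That difference was -13.7 percentage points (p = 0.0238, exact permutation test, two-sided, the smallest p that 3 against 6 rats allow). It no longer passed without the cells of mixed keratins: over keratin-balanced cells it was -10.1 points (exact p = 0.119), and -6.10 points (exact p = 0.286) with the cells left out counted as luminal. Without any 1 vehicle rat the smallest possible p is 0.0714, and the difference ranged from -17.5 (without rat 4) to -6.78 points (without rat 2). In a dissociated gland, fewer cells of a type and a lower yield of them cannot be told apart.

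The UMIs of each gene were summed over the basal cells of a rat, and the 6 TGFBRi-treated rats were compared with the 3 vehicle rats. Of 14750 genes tested, 2939 were raised and 3130 lowered at an adjusted p of 0.1 or less, so that 41.1% of all genes passed (19.9% raised, 21.2% lowered), and for 30.4% of genes the CPM of the 2 groups did not overlap. With so wide a change, counts within a gene list are read against these shares, and the median log2 fold change of all genes was 0.01. Over keratin-balanced cells 3110 of 14319 genes were raised (21.7%) and 3184 lowered (22.2%), or 44% in all, the groups did not overlap for 32.1% of genes, and the median was 0.05. Of the 6069 genes that passed over all gated cells, 5111 (84.2%) passed in the same direction over keratin-balanced cells, which is 81.2% of the 6294 that passed there, and 20 passed in opposite directions. Over the 439 vehicle and 752 TGFBRi cells with at most 1 luminal keratin UMI, 825 of 10460 genes were raised (7.89%) and 828 lowered (7.92%). Of 121 named genes tested there, 49 no longer passed and 1, CCN2, had the opposite sign (-0.55, adjusted p = 0.559). The p-values measure the spread between these 9 animals.

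Contractile genes were higher after TGFBRi in basal cells. Of 15 tested, 14 rose and none fell (background 19.9% raised), with a median log2 fold change of 1.34. For 13 of the 15 the groups did not overlap (background 30.4%). ACTA2, the smooth muscle actin that defines myoepithelial cells, had 5146, 2813 and 3372 CPM in the vehicle rats and between 7164 and 12319 CPM after TGFBRi (median 9829). Every treated rat lay above every vehicle rat (log2 fold change 1.35, standard error 0.22, adjusted p = 0.000883). MYH11, the smooth muscle myosin heavy chain, had 384, 191 and 342 CPM in the vehicle rats and between 728 and 1549 CPM after TGFBRi (median 1247), again without overlap (log2 fold change 1.97, standard error 0.32, adjusted p = 0.00121). MYLK, the kinase that phosphorylates the myosin light chain to start contraction, had 224, 142 and 178 CPM in the vehicle rats and between 487 and 857 CPM after TGFBRi (median 717) (log2 fold change 1.91, standard error 0.23, adjusted p = 0.000156). The receptor for oxytocin, OXTR, was the contractile gene with the highest log2 fold change, at 4.29, 5.08 and 4.86 CPM in the vehicle rats and a median of 54.2 CPM after TGFBRi (log2 fold change 3.62, standard error 0.61, adjusted p = 0.00223). All 6 treated rats were above the vehicle rats for OXTR, but they differed among themselves from 20.7 to 109 CPM.

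The other contractile genes that rose were SYNM and SYNPO2 (cytoskeletal linkers of muscle, 2.11, adjusted p = 0.00116 and 1.35, adjusted p = 0.00158, as log2 fold changes), LMOD1 (an actin nucleator, 1.81, adjusted p = 0.00018), MYL9 (the regulatory light chain, 1.34, adjusted p = 0.000201), CNN1 (calponin, 1.27, adjusted p = 0.00114), TPM2 and TPM1 (tropomyosins, 1.12, adjusted p = 0.000587 and 0.77, adjusted p = 0.000603), ACTG2 (1.06, adjusted p = 0.00135), TAGLN (0.95, adjusted p = 0.00323) and SMTN (0.62, adjusted p = 0.09). CALD1, caldesmon, did not pass, at 377, 367 and 274 CPM in the vehicle rats and between 325 and 469 CPM after TGFBRi (median 417) (0.27, adjusted p = 0.196). Without TGFBRi rat 4 CALD1 passed (0.36, adjusted p = 0.0790), and SMTN did not pass without any 1 of the 3 vehicle rats or TGFBRi rats 1 and 2 (adjusted p from 0.1001 to 0.234). Over keratin-balanced cells 13 of 15 rose with a median of 0.90: SMTN no longer passed (0.27, adjusted p = 0.435), while ACTA2 (0.97, adjusted p = 0.00151), MYH11 (1.56, adjusted p = 0.00316), MYLK (1.52, adjusted p = 0.000252) and OXTR (3.21, adjusted p = 0.00365) did. In those cells ACTA2 had 6125, 4136 and 5431 CPM in the vehicle rats and 7776 to 13068 CPM after TGFBRi.

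In the cells with at most 1 luminal keratin UMI 6 of 15 contractile genes rose and none fell (background 7.89% raised), with a median of 0.73. ACTA2 (1.01, adjusted p = 0.00365), MYLK (1.44, adjusted p = 0.00147), OXTR (2.84, adjusted p = 0.00054), LMOD1 (1.77, adjusted p = 0.0197), TPM2 (0.75, adjusted p = 0.0191) and ACTG2 (0.63, adjusted p = 0.0723) passed. Of the 8 that no longer did, MYH11 (1.46, adjusted p = 0.162), SYNM (1.24, adjusted p = 0.125), MYL9 (0.73, adjusted p = 0.165), CNN1 (0.71, adjusted p = 0.136), TAGLN (0.51, adjusted p = 0.227) and TPM1 (0.40, adjusted p = 0.121) had adjusted p from 0.121 to 0.227, while SYNPO2 (0.22, adjusted p = 0.799) and SMTN (0.23, adjusted p = 0.697) were nearer to 0. TP63 passed in these cells (1.48, adjusted p = 0.00647). Of 16 basement membrane genes 2 rose. NID1 passed (1.13, adjusted p = 0.0131) and LAMB1 did not (0.53, adjusted p = 0.253). There 8 of 19 acute inflammation genes fell (background 7.92% lowered), and 10 of 14 oxidative stress genes fell.

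By cell rather than by sum, after thinning to 1000 UMIs each, 77.4% ± 6.84 of basal cells had an ACTA2 UMI with vehicle (SD, n = 3) and 96.1% ± 1.19 after TGFBRi (SD, n = 6), or 85.1% ± 6.03 and 98.1% ± 0.432 before thinning. This and the other shares by cell cover all gated cells, with the cells of mixed keratins that were more common with vehicle. They were not taken over keratin-balanced cells. Of keratin-balanced cells, 0.725 to 4.87% with vehicle and 0.244 to 1.01% with TGFBRi held fewer than 3 UMIs over ACTA2, MYH11 and TAGLN. Leukocytes (2 or more PTPRC UMIs and no keratin UMI), which do not express ACTA2, had 2.39% ± 0.944 and 1.57% ± 0.293 after thinning. Cells with a keratin UMI were left out of this class, so that these shares can lie below the level of free RNA in basal cells. The median depth of leukocytes was 2655 to 4126 UMIs, against 5275 to 9914 in basal cells. OXTR UMIs were found in 0.573% ± 0.203 of thinned basal cells with vehicle and in 5.43% ± 2.64 with TGFBRi, and in 3.91% ± 1.35 and 24.5% ± 7.93 of unthinned ones. Vascular smooth muscle cells were chosen by summed UMIs of ACTA2, MYH11 and TAGLN without keratin UMIs. They had MYH11 at 1360.4 to 2083 CPM with vehicle and 1448 to 2979.6 CPM with TGFBRi, groups that overlapped. Since MYH11 helped to choose these cells, its level there is a description and no test of the change in basal cells.

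**Figure D2:**
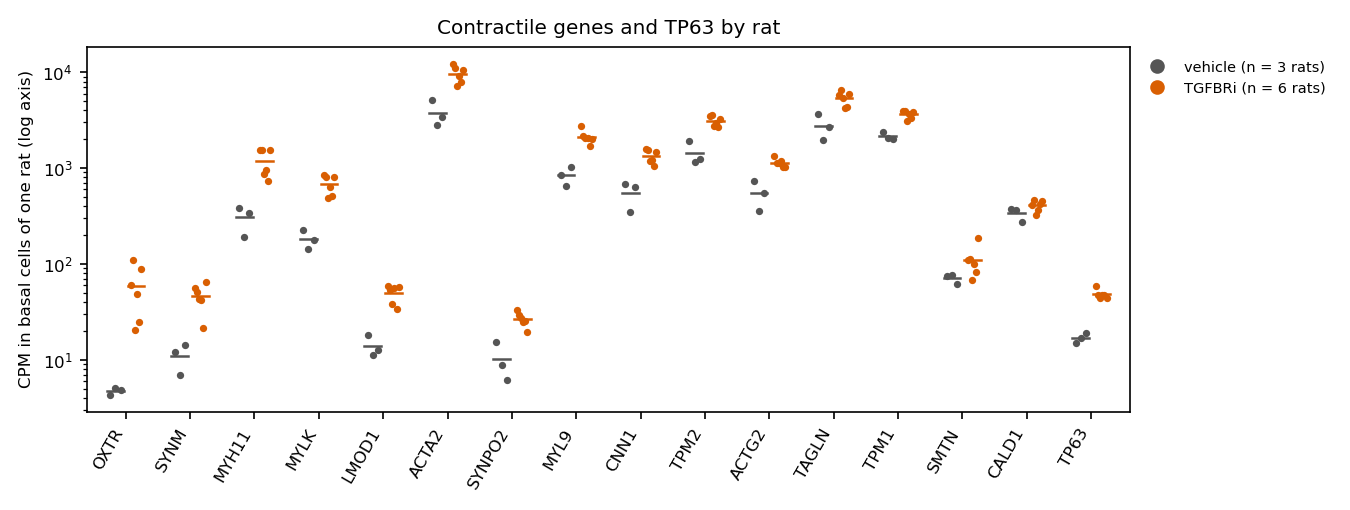
CPM in basal-gated cells (log axis) for the 15 contractile genes, ordered by log2 fold change, and TP63. Points are rats and bars are group means (3 vehicle, 6 TGFBRi); the groups are apart for all genes shown except SMTN and CALD1.

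The transcription factors of the basal and smooth muscle programmes moved mostly upward: of 13 tested, 8 rose and 1 fell (background 19.9% raised, 21.2% lowered), with a median of 0.76. TP63 had 14.9, 16.8 and 19 CPM in the vehicle rats and between 43.9 and 58.2 CPM after TGFBRi (median 47.1), and the groups did not overlap (log2 fold change 1.52, standard error 0.15, adjusted p = 4.35e-05). EGR2, an immediate early zinc finger factor, had 12.1, 9.41 and 18.1 CPM in the vehicle rats and between 49.8 and 82.1 CPM after TGFBRi (median 77.05) (log2 fold change 2.50, standard error 0.23, adjusted p = 4.22e-05). FOXP1, a forkhead factor of basal stem cells, had 72.2, 70.1 and 61.4 CPM in the vehicle rats and between 110.1 and 173 CPM after TGFBRi (median 155) (log2 fold change 1.12, standard error 0.16, adjusted p = 0.000341). TCF7L1, a Wnt pathway repressor, and MEF2C, a muscle factor, also rose (1.23, adjusted p = 0.00033 and 1.74, adjusted p = 0.000849). In the cells with at most 1 luminal keratin UMI MEF2C did not pass (0.67, adjusted p = 0.655), while TCF7L1 did (1.76, adjusted p = 0.0159). SOX10, a neural crest factor of mammary progenitors, was the member that fell (-0.80, adjusted p = 0.0332), with groups that overlapped, and it did not pass without vehicle rat 1 (-0.75, adjusted p = 0.102) or 2 (-0.59, adjusted p = 0.166). In the cells with at most 1 luminal keratin UMI 5 of 12 of these factors rose and 0 fell (background 7.89% raised), with SOX10 at -0.06 (adjusted p = 0.928). Over keratin-balanced cells 9 rose and 1 fell, TP63 by 1.09 (adjusted p = 0.000626). A TP63 UMI was found in 1.98% ± 0.388 of thinned basal cells with vehicle and 4.78% ± 0.671 with TGFBRi, and in 0 and 0.0265% ± 0.0303 of leukocytes.

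Genes of the basement membrane rose as well, 13 of 18 tested (background 19.9% raised) with none lowered and a median of 0.76. LAMB1, a laminin chain, had 59.6, 51.95 and 60.8 CPM in the vehicle rats and between 120.4 and 141 CPM after TGFBRi (median 128), and every treated rat exceeded every vehicle rat (log2 fold change 1.18, standard error 0.12, adjusted p = 6.42e-05). NID1, which ties laminin to type IV collagen, had 52.8, 37.4 and 40.2 CPM in the vehicle rats and between 85.7 and 126 CPM after TGFBRi (median 103.2) (log2 fold change 1.28, standard error 0.16, adjusted p = 0.000183). LAMA1, the laminin chain of embryonic and basal epithelia, had 7.12, 5.64 and 9.50 CPM in the vehicle rats and between 21.4 and 70.5 CPM after TGFBRi (median 39.6) (log2 fold change 2.52, standard error 0.40, adjusted p = 0.000984), while AGRN (agrin) and COL4A2 (type IV collagen) rose by less (0.80, adjusted p = 0.000726 and 0.88, adjusted p = 0.00105). In keratin-balanced cells 12 rose and 1 fell, with a median of 0.49. Adhesion genes went either way, 7 raised and 6 lowered of 18 (background 19.9% raised, 21.2% lowered). COL17A1, CD151 and ITGA6 were among those raised, with log2 fold changes of 0.62, adjusted p = 0.0092, 0.76, adjusted p = 0.0131 and 0.50, adjusted p = 0.014. COL17A1 did not pass in keratin-balanced cells (0.22, adjusted p = 0.245). JUP, the desmosomal plakoglobin, fell from 487, 476 and 413 CPM to between 240.2 and 311 CPM (log2 fold change -0.76, standard error 0.12, adjusted p = 0.000675). PLEC (plectin) and the integrins ITGA2 and ITGA3 fell too (-0.58, adjusted p = 0.00871, -0.92, adjusted p = 0.0189 and -0.51, adjusted p = 0.0191), although without vehicle rat 2 neither integrin passed (adjusted p = 0.113 and 0.109). In keratin-balanced cells 3 adhesion genes rose and 7 fell. In the cells with at most 1 luminal keratin UMI 2 of 18 rose and 4 fell (background 7.89% raised, 7.92% lowered). There COL17A1 (0.39, adjusted p = 0.299), CD151 (1.95, adjusted p = 0.182) and ITGA6 (0.40, adjusted p = 0.313) did not pass. Of the lowered genes, PLEC (-0.30, adjusted p = 0.421) and ITGA3 (-0.55, adjusted p = 0.195) did not pass there either, while JUP and ITGA2 did.

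Of 19 interstitial matrix genes and their proteases, 9 rose and 2 fell (8 and 3 in keratin-balanced cells), against 19.9% of all genes raised and 21.2% lowered. The 2 that fell were MMP3, a stromelysin, and TIMP1, an inhibitor of metalloproteinases. MMP3 had 118, 157 and 99.9 CPM in the vehicle rats and between 9.21 and 22.9 CPM after TGFBRi (median 13.9) (log2 fold change -3.03, standard error 0.27, adjusted p = 4.35e-05), and TIMP1 807, 932 and 592 CPM in the vehicle rats and between 162 and 372 CPM after TGFBRi (median 283) (log2 fold change -1.55, standard error 0.22, adjusted p = 0.000491). A related inhibitor, TIMP2, moved the opposite way, from 89.9, 64.1 and 69.8 CPM to between 174 and 297 CPM (log2 fold change 1.64, standard error 0.20, adjusted p = 0.000156). The elastic fibre genes FBLN2 and FBN1 rose (0.99, adjusted p = 0.000669 and 0.93, adjusted p = 0.000863). In the cells with at most 1 luminal keratin UMI FBN1 did not pass (0.64, adjusted p = 0.344), while FBLN2 did (0.86, adjusted p = 0.0226). Of 18 interstitial matrix genes tested there 3 rose and 4 fell (background 7.89% raised, 7.92% lowered). COL3A1, a limit of the gate, had a UMI in 4.59 to 32.04% of gated cells with vehicle and 9.64 to 14.8% with TGFBRi, and the fibroblast list is given with the other cell types.

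The TGFβ pathway, whose receptor kinase the drug blocks, was measured at its ligands, receptors, SMADs and targets. Among ligands, receptors and latency proteins 5 of 15 rose and none fell (median 0.31), against 19.9% of all genes raised. In keratin-balanced cells 3 rose and 1 fell (median 0.09), against 21.7% of all genes raised and 22.2% lowered. The betaglycan gene TGFBR3, a co-receptor that presents TGFβ, had 81.9, 56.1 and 64.3 CPM in the vehicle rats and between 181 and 319 CPM after TGFBRi (median 207), without overlap (log2 fold change 1.81, standard error 0.24, adjusted p = 0.000257). TGFB3 rose (1.03, adjusted p = 0.00982), but it did not pass in the cells with at most 1 luminal keratin UMI (0.19, adjusted p = 0.914). The ligands TGFB1 (-0.10, adjusted p = 0.787) and TGFB2 (0.35, adjusted p = 0.225) and the signalling receptors TGFBR1 (-0.06, adjusted p = 0.805) and TGFBR2 (-0.11, adjusted p = 0.704) did not pass. TGFBR1 had 20.7, 20.2 and 22.3 CPM with vehicle and 15.4 to 24.1 with TGFBRi. The receptors ACVRL1 (0.56, adjusted p = 0.515) and ENG (0.31, adjusted p = 0.206) and the proteins that hold latent TGFβ, LRRC32 (-0.79, adjusted p = 0.219), NRROS (0.01, adjusted p = 0.99), LTBP1 (-0.41, adjusted p = 0.175) and LTBP2 (-0.14, adjusted p = 0.815), did not pass either. LTBP1 was lower in keratin-balanced cells (-0.61, adjusted p = 0.058) and without vehicle rat 4 (-0.61, adjusted p = 0.0588) or TGFBRi rat 14 (-0.48, adjusted p = 0.0982), and ENG was higher without vehicle rat 1 (0.51, adjusted p = 0.0841) or TGFBRi rat 4 (0.41, adjusted p = 0.0948). LTBP3, LTBP4 and THBS1, which store or activate latent TGFβ, passed with log2 fold changes of 0.38, adjusted p = 0.0713, 0.49, adjusted p = 0.0564 and 0.62, adjusted p = 0.0958, but none of them passed in keratin-balanced cells (adjusted p = 0.433, 0.578 and 0.115), where TGFB2 did (0.67, adjusted p = 0.0914). LTBP3 and LTBP4 also did not pass without vehicle rat 2 (adjusted p = 0.130 and 0.121) or 4 (0.272 and 0.211), and THBS1 without any 1 vehicle rat or TGFBRi rats 1, 2, 11 and 14 (0.114 to 0.291). None of the 3 passed in the cells with at most 1 luminal keratin UMI (adjusted p = 0.756, 0.898 and 0.583).

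Among SMADs and feedback inhibitors 8 of 15 rose and 1 fell (median 0.50, background 19.9% raised, 21.2% lowered), and 7 and 2 in keratin-balanced cells. SMAD7, which sends the type I receptor to degradation, had 30.1, 19.3 and 27.8 CPM in the vehicle rats and between 41.1 and 124 CPM after TGFBRi (median 98.8) (log2 fold change 1.79, standard error 0.38, adjusted p = 0.00556). The corepressors SKI and SKIL rose (1.02, adjusted p = 0.00183 and 1.15, adjusted p = 0.00734), as did PMEPA1, which sequesters receptor SMADs (233, 135 and 131 CPM in the vehicle rats and between 236 and 461 CPM after TGFBRi (median 374), log2 fold change 1.10, standard error 0.25, adjusted p = 0.00646). In the cells with at most 1 luminal keratin UMI neither PMEPA1 (0.51, adjusted p = 0.185) nor SKI (1.15, adjusted p = 0.273) passed, while SMAD7 (1.70, adjusted p = 0.0021) and SKIL (1.05, adjusted p = 0.0944) did. SMAD3, which this kinase phosphorylates, was the member that fell: it had 69.05, 81.2 and 44.9 CPM in the vehicle rats and between 26.6 and 42.5 CPM after TGFBRi (median 31.3) (log2 fold change -0.99, standard error 0.19, adjusted p = 0.00196), and -1.28, adjusted p = 0.000397 in keratin-balanced cells. LEMD3, SMAD1, BAMBI and SMAD6 had smaller margins (0.53, adjusted p = 0.0246, 0.50, adjusted p = 0.0363, 0.73, adjusted p = 0.0467 and 1.83, adjusted p = 0.0621). Of these SMAD1 did not pass without vehicle rat 2 or 4 (adjusted p = 0.149 and 0.107), BAMBI without vehicle rat 1 or 2 (0.105 and 0.190) or in keratin-balanced cells (0.35, adjusted p = 0.354), and SMAD6, under 1 CPM in every rat, without vehicle rat 2 or 4 or TGFBRi rat 1 or 6 (0.105 to 0.210). LEMD3 (0.17, adjusted p = 0.825), SMAD1 (0.53, adjusted p = 0.276) and BAMBI (0.11, adjusted p = 0.873) also did not pass in the cells with at most 1 luminal keratin UMI. The 6 members that did not pass were the signal carriers SMAD2 (-0.25, adjusted p = 0.184), SMAD4 (-0.36, adjusted p = 0.332) and SMAD5 (-0.03, adjusted p = 0.94), the ubiquitin ligases SMURF1 (-0.13, adjusted p = 0.518) and SMURF2 (-0.31, adjusted p = 0.144) and the corepressor TGIF1 (-0.29, adjusted p = 0.219). SMURF2 passed in keratin-balanced cells (-0.36, adjusted p = 0.0783) and without vehicle rat 4 (-0.40, adjusted p = 0.0905).

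Of 27 genes that TGFβ raises in many cell types, 5 rose, 2 fell and 20 did not pass (median 0.23, and 0.01 in keratin-balanced cells, where 5 rose and 3 fell), a smaller share than the 41.1% of all genes. CCN1, a matricellular protein also under the control of mechanical signals, had 331, 364 and 373 CPM in the vehicle rats and between 653 and 1465 CPM after TGFBRi (median 913) (log2 fold change 1.44, standard error 0.23, adjusted p = 0.000784). Its relative CCN2 rose less (0.93, adjusted p = 0.00441), as did TIMP3, JUNB and BHLHE40 (1.12, adjusted p = 0.00225, 0.62, adjusted p = 0.043 and 0.59, adjusted p = 0.0476), of which JUNB did not pass without vehicle rat 2 (adjusted p = 0.161) and BHLHE40 without vehicle rat 1 or 2 (0.112 and 0.180). In the cells with at most 1 luminal keratin UMI CCN2 turned its sign (-0.55, adjusted p = 0.559) and TIMP3 (0.65, adjusted p = 0.137) and JUNB (0.77, adjusted p = 0.301) did not pass. TNC (tenascin C) and CDKN2B (the cell cycle inhibitor p15) fell (-1.72, adjusted p = 0.0055 and -1.70, adjusted p = 0.0193). Of 15 ID and BMP pathway genes 2 rose and 3 fell (2 and 1 in keratin-balanced cells), shares not above those of all genes (19.9% raised, 21.2% lowered). FST, follistatin, which binds activin, fell from 667, 754 and 661 CPM to between 95.7 and 223 CPM (log2 fold change -1.99, standard error 0.24, adjusted p = 0.000194), and the BMP antagonist GREM1 rose from under 1 CPM in each vehicle rat to between 0.357 and 1.95 CPM (2.33, adjusted p = 0.0123).

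Of 34 growth factors and receptors of the basal layer 12 rose and 5 fell (median 0.45, background 19.9% raised, 21.2% lowered), and 14 and 6 in keratin-balanced cells. IL17B, a cytokine of the IL-17 family, had 102.2, 28.4 and 114 CPM in the vehicle rats and between 147 and 1583 CPM after TGFBRi (median 647) (log2 fold change 3.29, standard error 0.95, adjusted p = 0.0293). Its treated rats spanned a wide range, all above the vehicle rats. In thinned cells an IL17B UMI was found in 8.24% ± 5.03 (vehicle) and 33.5% ± 15.9 (TGFBRi) of basal cells. LGR6, a receptor of R-spondins that marks basal progenitors, had 16.3, 12.6 and 12.8 CPM in the vehicle rats and between 40.3 and 60.2 CPM after TGFBRi (median 46.6) (log2 fold change 1.79, standard error 0.18, adjusted p = 4.69e-05). FGF1, a fibroblast growth factor, rose (1.42, adjusted p = 0.000233), and so did the Notch ligand JAG2 and WNT6 (0.91, adjusted p = 0.00128 and 1.97, adjusted p = 0.00194). The other Notch ligand, JAG1, fell: it had 126, 129 and 89.3 CPM in the vehicle rats and between 44.5 and 66.9 CPM after TGFBRi (median 55.4) (log2 fold change -1.06, standard error 0.15, adjusted p = 0.000382). CSF1, the growth factor of macrophages, fell as well (-1.52, adjusted p = 0.000693). In the cells with at most 1 luminal keratin UMI IL17B (2.79, adjusted p = 0.189), WNT6 (0.94, adjusted p = 0.306) and JAG1 (-0.66, adjusted p = 0.153) did not pass. LGR6, FGF1, JAG2 and CSF1 passed there in the same direction. IL17B also did not pass with the replicate block over rats 1, 2 and 4, or in keratin-balanced cells without vehicle rat 1 or 2. Of 10 IGF genes 2 rose and 2 fell (1 and 2 in keratin-balanced cells), shares near those of all genes (19.9% raised, 21.2% lowered). IGFBP5 rose with overlapping groups (1.78, adjusted p = 0.0439, and adjusted p = 0.138 and 0.125 without vehicle rats 1 and 2) and IGFBP3 fell (-1.19, adjusted p = 0.0167). IGFBP5 did not pass in the cells with at most 1 luminal keratin UMI (0.63, adjusted p = 0.685).

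Chemokines and cytokines of acute inflammation were lower in basal cells after TGFBRi. Of 20 tested, 12 fell and 4 rose (background 21.2% lowered), with a median of -0.95, and in keratin-balanced cells 12 fell and 1 rose. The ligands of the neutrophil receptor CXCR2 lie close together on chromosome 14. CXCL1 had 8609, 8057 and 4842 CPM in the vehicle rats and between 2144 and 3807 CPM after TGFBRi (median 2585) (log2 fold change -1.38, standard error 0.19, adjusted p = 0.000377). CXCL2 had 3049.8, 3319.9 and 1651 CPM in the vehicle rats and between 231 and 588 CPM after TGFBRi (median 388) (log2 fold change -2.73, standard error 0.28, adjusted p = 0.000137). CXCL3 had 1442, 3037 and 3710.0 CPM in the vehicle rats and between 37.0 and 197 CPM after TGFBRi (median 89.5) (log2 fold change -4.83, standard error 0.53, adjusted p = 0.000364), and CXCL6 35.2, 93.8 and 201 CPM in the vehicle rats and between 0.433 and 3.25 CPM after TGFBRi (median 0.982) (log2 fold change -6.39, standard error 0.60, adjusted p = 0.000156). For each of these 4 chemokines all treated rats lay below all vehicle rats. CSF3, the growth factor of granulocytes, fell too, with 149, 279 and 91.3 CPM in the vehicle rats and between 12.3 and 39.4 CPM after TGFBRi (median 24.8) (log2 fold change -2.75, standard error 0.37, adjusted p = 0.000604). ICAM1, an adhesion molecule for leukocytes, was among the members that rose (0.81, adjusted p = 0.0188).

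The same genes were measured in other cell classes of these glands. In luminal cells 12 of the 20 listed genes fell and none rose (median -0.91, background 12.9% lowered), as many lowered as in basal cells. CXCL2 in luminal cells had 11760.0, 10261 and 4652 CPM in the vehicle rats and between 3064 and 6820.3 CPM after TGFBRi (median 5029), groups that overlapped (-0.94, adjusted p = 0.0878). CXCL1 in leukocytes had 1379.7, 2199 and 2653 CPM in the vehicle rats and between 358 and 655 CPM after TGFBRi (median 480.3), without overlap. Free RNA in the droplets can carry such transcripts between classes, and its part in the result was not tested. In keratin-balanced cells CXCL2 had 1915, 2058 and 1463 CPM in the vehicle rats and between 109 and 304 CPM after TGFBRi (median 223), and CXCL6 16.8, 48.9 and 13.01 CPM in the vehicle rats and between 0 and 1.48 CPM after TGFBRi (median 0.441).

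Of the 4 chemokines above, CXCL1, CXCL2 and CXCL6 matched an entry of the promoter table used, and these promoters are shown because the genes are neighbours that moved together. Each stretch runs from 250 bases before to 50 bases after the start of the gene, on the minus strand, read 5′ to 3′ (RefSeq sequences, build GRCr8, which is not the rn6 build of the count tables). Capitals mark the letters GGG, then NN (any bases), then TTTCC, read on either strand, a common form of the site of NF-κB, the transcription factor of inflammatory genes. No second motif was searched.
CXCL1 (chr14:17479272-17479571): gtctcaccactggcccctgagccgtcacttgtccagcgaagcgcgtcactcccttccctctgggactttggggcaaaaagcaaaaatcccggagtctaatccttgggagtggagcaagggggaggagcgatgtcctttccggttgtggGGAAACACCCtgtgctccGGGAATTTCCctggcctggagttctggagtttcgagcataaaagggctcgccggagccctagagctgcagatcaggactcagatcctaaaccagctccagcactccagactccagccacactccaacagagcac
CXCL2 (chr14:17467206-17467505): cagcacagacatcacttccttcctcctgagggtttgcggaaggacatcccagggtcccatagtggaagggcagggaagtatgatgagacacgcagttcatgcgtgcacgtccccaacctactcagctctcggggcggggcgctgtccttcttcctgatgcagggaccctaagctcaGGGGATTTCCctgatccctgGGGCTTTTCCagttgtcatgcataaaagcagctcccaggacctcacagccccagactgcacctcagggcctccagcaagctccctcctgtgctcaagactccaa
CXCL6 (chr14:17596368-17596667): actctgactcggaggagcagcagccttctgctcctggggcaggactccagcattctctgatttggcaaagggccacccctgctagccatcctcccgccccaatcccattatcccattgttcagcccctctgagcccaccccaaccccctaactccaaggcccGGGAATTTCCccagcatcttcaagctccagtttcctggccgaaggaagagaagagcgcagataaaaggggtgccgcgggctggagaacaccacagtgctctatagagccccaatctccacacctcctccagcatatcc
Of the 2 matches each in CXCL1 and CXCL2, the one nearer to the start begins 84 and 54 bases before it, and the match in CXCL6 begins 88 bases before it. Of the 33469 promoters of this length, 1.53% hold them. Of the 20 listed genes tested, 16 had a promoter, and 8 of these held the letters, as did 7 of the 9 promoters found for the 12 members that fell. A match of letters is a description of the sequence and not evidence that the factor binds there. The listed genes were picked as genes of acute inflammation, so that their share of matches is no evidence about the treatment. A part of this factor in the change was not tested.

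Genes that answer oxidative stress fell, too: 11 of 14 tested were lower and 2 higher (background 21.2% lowered, 19.9% raised), with a median of -1.10 (-1.32 in keratin-balanced cells, with the same counts). NQO1, a quinone reductase and classical target of the factor NRF2, had 353, 356 and 268 CPM in the vehicle rats and between 17.5 and 57.5 CPM after TGFBRi (median 34.9) (log2 fold change -3.18, standard error 0.26, adjusted p = 2.86e-05). GCLM and GCLC, the subunits of the enzyme that starts glutathione synthesis, fell: GCLM had 124, 72.6 and 57.7 CPM in the vehicle rats and between 15.2 and 21.0 CPM after TGFBRi (median 19.2) (log2 fold change -2.19, standard error 0.20, adjusted p = 4.07e-05) and GCLC 98.8, 71.7 and 59.4 CPM in the vehicle rats and between 18.7 and 38.2 CPM after TGFBRi (median 26.9) (log2 fold change -1.51, standard error 0.21, adjusted p = 0.00032). OSGIN1 and TXNRD1 (thioredoxin reductase) followed (-1.99, adjusted p = 0.000817 and -1.30, adjusted p = 0.000846). The 2 members that rose were the metallothioneins, metal-binding proteins: MT1 had 885, 1206 and 938 CPM in the vehicle rats and between 2459.9 and 3159.5 CPM after TGFBRi (median 2819.5) (log2 fold change 1.49, standard error 0.13, adjusted p = 3.15e-05), and MT2A rose by less (1.07, adjusted p = 0.000528). In NQO1, GCLM, GCLC and MT1 the groups did not overlap. In luminal cells 7 of the 14 fell and none rose (median -0.55, background 12.9% lowered). NQO1 was also lower in leukocytes, at 373, 564 and 387 CPM in the vehicle rats and between 41.4 and 81.6 CPM after TGFBRi (median 50.2), and in luminal cells, at 47.2, 60.7 and 94.5 CPM in the vehicle rats and between 11.8 and 19.2 CPM after TGFBRi (median 16.0). MT1 in leukocytes overlapped between groups, at 209.6, 225 and 205 CPM in the vehicle rats and between 177 and 230.5 CPM after TGFBRi (median 212).

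**Figure D3:**
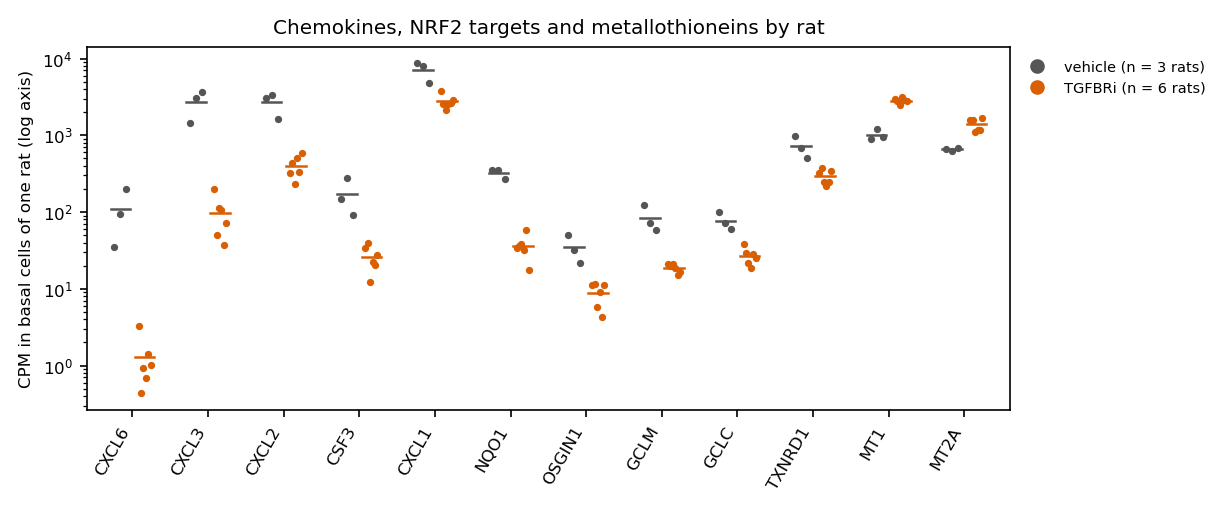
CPM in basal-gated cells (log axis) for chemokines and CSF3, NRF2 targets and the 2 metallothioneins. Points are rats and bars are group means (3 vehicle, 6 TGFBRi); the treated rats lie below the vehicle rats for the 10 genes at the left and above them for MT1 and MT2A.

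Immediate early genes, which dissociation of tissue can also raise, had 6 of 15 raised and 2 lowered (background 19.9% raised, 21.2% lowered). Their median was 0.19, and 0.55 in keratin-balanced cells, where 8 rose and 2 fell. EGR3, of the same family as EGR2, had 5.84, 6.38 and 7.29 CPM in the vehicle rats and between 26.3 and 40.6 CPM after TGFBRi (median 31.1) (log2 fold change 2.33, standard error 0.18, adjusted p = 1.00e-05), and NR4A1, a nuclear receptor induced within minutes of a signal, 56.99, 27.9 and 77.6 CPM in the vehicle rats and between 191 and 341 CPM after TGFBRi (median 299.5) (log2 fold change 2.40, standard error 0.31, adjusted p = 0.00026). EGR1 rose and IER3 fell (1.39, adjusted p = 0.00174 and -0.86, adjusted p = 0.000849). EGR1 did not pass in the cells with at most 1 luminal keratin UMI (1.42, adjusted p = 0.191). Of 17 genes of glucocorticoid response and the circadian clock 12 rose and 1 fell (median 0.74, background 19.9% raised, 21.2% lowered), and 12 and 2 in keratin-balanced cells. Of the clock genes in this list, PER1 rose from 15.9, 12.8 and 13.04 CPM to between 24.4 and 35.3 (log2 fold change 1.03, standard error 0.16, adjusted p = 0.000627). TEF and PER3 rose by 0.80 and 0.72 on the log2 scale (adjusted p = 0.00287 and 0.00325), while ARNTL, which drives them at the opposite phase, fell (-0.997, adjusted p = 0.02). In the cells with at most 1 luminal keratin UMI PER1 (0.56, adjusted p = 0.375), TEF (1.05, adjusted p = 0.150) and PER3 (0.93, adjusted p = 0.104) did not pass. ARNTL did (-1.25, adjusted p = 0.0942). The kinase SGK1, a target of glucocorticoids, rose (0.74, adjusted p = 0.0043). Luminal cells of the same rats gave 1.13, adjusted p = 0.0205 for PER1 and -1.08, adjusted p = 0.0052 for ARNTL. The hour of tissue collection is not given in the sources used here, and its part was not tested.

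Few proliferation genes passed. Of 18 S phase genes 2 rose and 1 fell, and of 21 G2/M genes none passed in edgeR, at an unadjusted p under 0.05 or in DESeq2 (0 by each), shares below the 41.1% of all genes. S phase genes (2 or more UMIs) were seen in 4.83% ± 2.60 of thinned basal cells with vehicle and 5.79% ± 1.11 with TGFBRi (SD, n = 3 and 6), and G2/M genes in 6.49% ± 4.89 and 6.01% ± 4.72. Leukocytes gave 8.73% ± 1.32 and 10.6% ± 1.17 for S phase genes, above the basal cells, so that no cycling is read from these shares. Of 16 interferon-stimulated genes 5 rose and 5 fell (5 and 3 in keratin-balanced cells), against 19.9% of all genes raised and 21.2% lowered. Of 9 heat shock genes 2 rose and 2 fell, near these shares. Of 6 MHC class II genes none passed (0 also at an unadjusted p under 0.05 and by DESeq2). Among 10 markers of secretory basal cells 2 rose (ID3, 1.01, adjusted p = 0.0147, and PROCR, 0.80, adjusted p = 0.0468) and 1 fell (IGFBP7, -0.74, adjusted p = 0.0515), shares not above those of all genes (19.9% raised, 21.2% lowered). In keratin-balanced cells 3 of these markers rose and 2 fell. In the cells with at most 1 luminal keratin UMI none of the 10 rose and 1 fell. There neither ID3 (0.56, adjusted p = 0.208), PROCR (0.29, adjusted p = 0.741) nor IGFBP7 (-1.16, adjusted p = 0.187) passed. ID3 also did not pass in keratin-balanced cells without vehicle rat 1 or 2 or TGFBRi rat 1, 2 or 14. PROCR passed neither in keratin-balanced cells (0.49, adjusted p = 0.177) nor without vehicle rat 2 (adjusted p = 0.161), and IGFBP7 did not pass without vehicle rat 1 (adjusted p = 0.261). These markers come from the study, which chose them on sorted cells of the series, so that their count is not independent evidence.

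Markers of other cell types were measured in the gated cells beside these results. Of 17 luminal markers 10 were lower after TGFBRi and none higher (median -0.86, background 21.2% lowered), and their summed level was 7546 to 11068 CPM with vehicle and 3394 to 4219.9 CPM with TGFBRi. KRT8, KRT18 and KRT19 choose the keratin-balanced cells, so the list is given there without them: of the other 14 markers 5 were lower and 3 higher (median -0.12), against 7 lower and none higher in all gated cells. The summed level of these 14 was 4728 to 5828 CPM with vehicle and 1788 to 2466 CPM with TGFBRi, and in keratin-balanced cells 2454 to 2792 CPM with vehicle and 1336 to 2024 CPM with TGFBRi. CLDN3, a tight junction protein, was lower over all gated cells (-2.78, adjusted p = 0.000196). It did not pass in keratin-balanced cells (-0.67, adjusted p = 0.296). The milk list (9 tested) had no member that passed (median -1.27), at 2011 to 11612 CPM with vehicle and 337 to 4231 CPM with TGFBRi. In keratin-balanced cells 2 of its members rose (median 0.87), at 217 to 625.1 CPM with vehicle and 129 to 1483 CPM with TGFBRi, ranges that overlapped. Of 13 leukocyte markers none passed (38.3 to 74.6 CPM with vehicle and 26.8 to 67.6 CPM with TGFBRi), and of 9 fibroblast markers 1 rose (199 to 314 CPM with vehicle and 188 to 347 CPM with TGFBRi). Of 10 endothelial markers 1 fell (81.8 to 158 CPM with vehicle and 33 to 302 CPM with TGFBRi), and of 10 mural cell markers 1 rose (18.0 to 32.03 CPM with vehicle and 21.2 to 34.8 CPM with TGFBRi). In keratin-balanced cells 2 mural markers fell. Of 5 Schwann cell markers 1 rose and 1 fell, and of 5 red cell and adipocyte markers none passed. For the milk, leukocyte, and red cell and adipocyte lists the count was 0 also at an unadjusted p under 0.05 and by DESeq2. The part of luminal RNA in the results over all gated cells was not tested beyond the values over keratin-balanced cells and over cells with at most 1 luminal keratin UMI.

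By size of change, the 10 raised genes with the largest log2 fold changes, among those with a mean of at least 20 UMIs per rat and groups that did not overlap, were NTF3, HRCT1, OXTR, ZBTB16, AABR07030086.2, EGR4, LOC500227, IL17B, IKZF4 and MAP2K6. NTF3, the neurotrophin NT-3, had 0.161, 0.280 and 0.663 CPM in the vehicle rats and between 3.69 and 17.9 CPM after TGFBRi (median 6.18) (log2 fold change 4.72, standard error 0.68, adjusted p = 0.000487), on 12 UMIs in the vehicle and 282 in the treated rats. EGR4 had 2.95, 3.82 and 4.42 CPM in the vehicle rats and between 15.5 and 57.8 CPM after TGFBRi (median 44.3) (log2 fold change 3.47, standard error 0.46, adjusted p = 0.000435), and MAP2K6, a kinase that activates p38, 0.696, 0.746 and 1.10 CPM in the vehicle rats and between 3.46 and 10.8 CPM after TGFBRi (median 7.49) (log2 fold change 3.19, standard error 0.39, adjusted p = 0.000156). IKZF4, a lymphoid zinc finger factor, had 1.02, 1.03 and 2.21 CPM in the vehicle rats and between 7.03 and 15.6 CPM after TGFBRi (median 11.6) (3.20, adjusted p = 0.000156), and the unnamed gene AABR07030086.2 1.23, 0.932 and 1.99 CPM in the vehicle rats and between 10.5 and 19.8 CPM after TGFBRi (median 14.6) (3.54, adjusted p = 2.00e-05). HRCT1 and LOC500227 had log2 fold changes of 4.19, adjusted p = 0.0227 and 3.33, adjusted p = 0.00135. ZBTB16, a zinc finger factor that glucocorticoids induce, had 0.589, 0.606 and 0.663 CPM in the vehicle rats and between 1.07 and 31.9 CPM after TGFBRi (median 1.73) (log2 fold change 3.56, standard error 1.42, adjusted p = 0.088), and 1 rat set its mean. It did not pass without any 1 vehicle rat or TGFBRi rat 6 (adjusted p from 0.110 to 0.220). All 10 passed in the same direction in keratin-balanced cells. In the cells with at most 1 luminal keratin UMI NTF3 (2.49, adjusted p = 0.183), HRCT1 (2.98, adjusted p = 0.200) and IL17B (2.79, adjusted p = 0.189) did not pass, while the others did.

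The 10 lowered genes chosen by the same rule included CXCL6, AKR1B8, SERPINB2, CXCL3, CSF2, MMP13, DDIT4L, CSAP1 and SLC5A1. AKR1B8, an aldo-keto reductase, had 139, 263 and 182 CPM in the vehicle rats and between 1.30 and 4.14 CPM after TGFBRi (median 1.95) (log2 fold change -6.31, standard error 0.33, adjusted p = 3.74e-06), and -7.05, adjusted p = 2.82e-07 in keratin-balanced cells. DDIT4L, a stress-induced inhibitor of mTOR, had 23.9, 39.6 and 21.2 CPM in the vehicle rats and between 0.685 and 1.97 CPM after TGFBRi (median 1.59) (log2 fold change -4.26, standard error 0.28, adjusted p = 3.74e-06). SERPINB2, an inhibitor of plasminogen activators, had 7.71, 6.52 and 6.41 CPM with vehicle (313 UMIs) and 4 UMIs in 1 of the 6 treated rats. The collagenase MMP13 had 340 UMIs with vehicle and 13 with TGFBRi (-4.42, adjusted p = 0.000254), and CSF2, a growth factor of granulocytes and macrophages, 728 and 28 (-4.44, adjusted p = 0.00348). In the cells with at most 1 luminal keratin UMI SERPINB2 (-7.47, adjusted p = 0.351), MMP13 (-5.98, adjusted p = 0.218) and CSF2 (-1.40, adjusted p = 0.666) did not pass. CSF2 also did not pass with the replicate block over rats 1, 2 and 4. CSAP1 (-4.13, adjusted p = 0.0209) and the sodium-glucose transporter SLC5A1 (-3.87, adjusted p = 0.000364) did not pass in keratin-balanced cells (-2.68, adjusted p = 0.189, and -1.76, adjusted p = 0.21), and CSAP1 did not pass without vehicle rat 4 (-1.91, adjusted p = 0.119), where it stood at 325 CPM.

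Luminal cells of the same 9 rats were compared in the same way, where 1709 of 14946 genes were raised (11.4%) and 1929 lowered (12.9%), 24.3% in all. The difference of the drug effect between basal and luminal cells, tested with each rat as a block, passed for 3850 of 15973 genes (24.1%), 1589 with a more positive (9.95%) and 2261 with a more negative effect (14.2%) in basal cells. With keratin-balanced cells it passed for 3527 of 15896 genes (22.2%), 1891 (11.9%) and 1636 (10.3%), so that the balance of directions turned. By DESeq2 it was 1873 and 1692. The share of more positive effects was thus 41.3% over all gated cells, 53.6% in keratin-balanced cells and 52.5% by DESeq2. Without vehicle rat 1 the first count was 850, and without vehicle rat 2 the second was 1430.

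For contractile genes the effect was more positive in basal than in luminal cells in 11 of 15 and more negative in none (background 9.95% more positive). With keratin-balanced cells it was 10 and none (background 11.9%). Luminal cells held little of these transcripts: the 15 genes summed to 588 to 881 CPM there with vehicle, against 10162 to 16487 CPM in basal cells. The part of free RNA in these luminal values was not tested. The interaction of MYH11 was 2.17, adjusted p = 0.00145, and its luminal log2 fold change -0.26, adjusted p = 0.739. For CCN1 the interaction was 2.39, adjusted p = 8.79e-05 and the luminal log2 fold change -0.95, adjusted p = 0.0429, and for FOXP1 they were 1.64, adjusted p = 8.95e-05 and -0.54, adjusted p = 0.0313. SMAD7, SKIL and PMEPA1 differed between the cell types as well (1.61, adjusted p = 0.00109, 1.15, adjusted p = 0.000943 and 1.35, adjusted p = 0.000521). Of the 27 genes that TGFβ raises, 13 had a more positive effect in basal cells and 2 a more negative one (background 9.95% and 14.2%). In luminal cells 1 of these genes rose and 11 fell (background 11.4% and 12.9%). Chemokine effects were more negative in basal cells for 6 of 20 and more positive for 4, against 14.2% and 9.95% of all genes. CXCL2 had an interaction of -1.89, adjusted p = 0.00706 and GCLM of -1.12, adjusted p = 0.000765. TGFBR3, PER1 and FST moved the same way in both cell types (luminal 1.70, adjusted p = 0.00534, 1.13, adjusted p = 0.0205 and -3.13, adjusted p = 0.00339), and their interactions did not pass (adjusted p = 0.892, 0.752 and 0.215). OXTR rose in luminal cells too (3.81, adjusted p = 0.0288), where it was below 1 CPM in every rat.

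**Figure D4:**
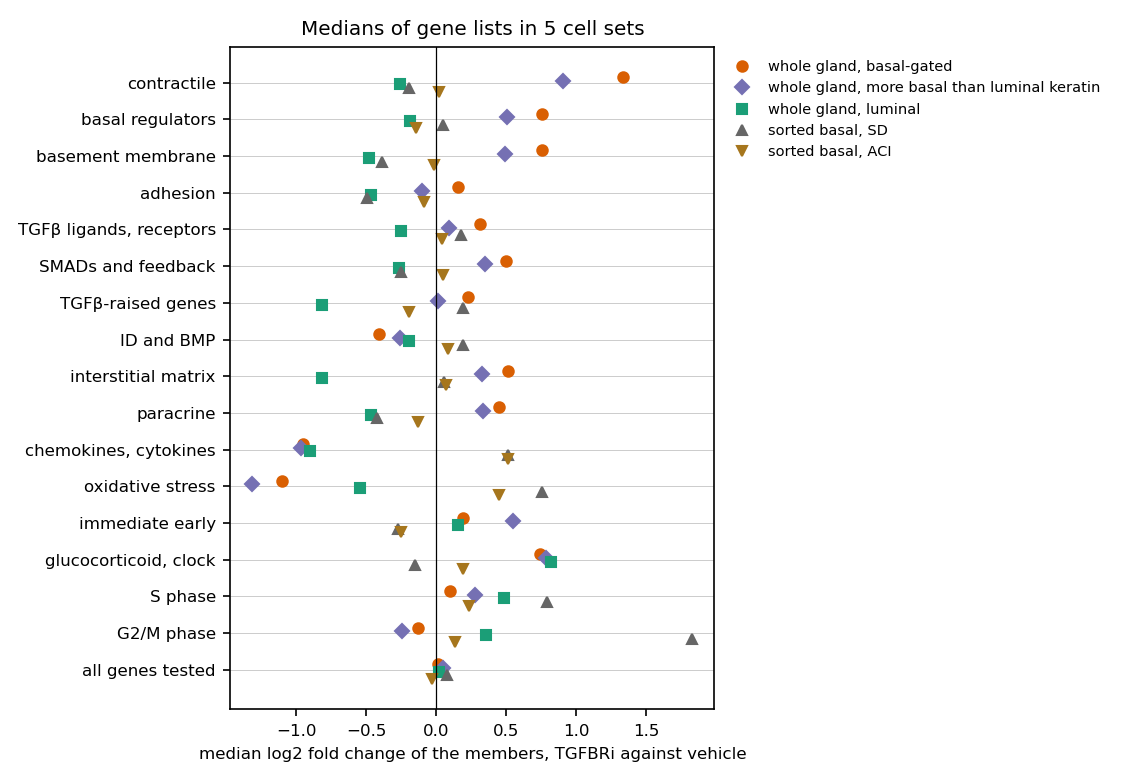
Median log2 fold change (x axis, TGFBRi against vehicle) of each gene list and of all genes tested (bottom row), in basal-gated, keratin-balanced and luminal cells of whole glands and in sorted basal cells of SD and ACI rats. The contractile median was 1.34 in basal-gated cells and 0.90 in keratin-balanced cells, and -0.20 and 0.02 in the sorted cells.

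Sorted basal cells give a second view of the same treatment. The sources used here do not say whether any of these SD animals also gave whole-gland cells, and some replicate numbers occur in both sets. They came from a sort for the surface markers CD24 (positive) and CD29 (high), at day 0, from young SD rats (3 vehicle, 6 TGFBRi) and from ACI rats (3 and 3), and were prepared with another library chemistry. By the study's methods, sorted cells with a PTPRC read or too few keratin reads had been removed, a step not used for whole glands. With the same keratin gate 14925 SD and 9384 ACI cells remained. In SD cells 2113 of 14188 genes were raised (14.9%) and 1983 lowered (14.0%), 28.9% in all, but without vehicle rat 3 only 109 and 167 and without vehicle rat 1 351 and 523. In ACI cells 2214 of 13947 were raised (15.9%) and 2477 lowered (17.8%), 33.6% in all. Neither the sort, the chemistry nor this removal of cells is shared with the whole-gland cells, and the difference of effect between the sets was not tested.

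The genes of largest change were followed in the sorted cells. Of the 10 most raised genes, MAP2K6 passed in the same direction in sorted SD cells (0.74, adjusted p = 0.0837), OXTR and AABR07030086.2 passed in the opposite one (-1.39, adjusted p = 0.0594 and -1.16, adjusted p = 0.0252) and 7 did not pass. In sorted ACI cells 4 passed in the same direction, 2 in the opposite one and 4 did not pass. Of the 10 most lowered genes 6 were tested in sorted SD cells and 7 in ACI cells. None passed as lowered in either, and 3 passed as raised in ACI cells, among them CXCL3 (2.05, adjusted p = 0.0272) and CSAP1 (4.40, adjusted p = 0.00153). Levels differed widely: CXCL3 had 1442, 3037 and 3710.0 CPM in whole-gland basal cells of vehicle rats and at most 1.65 CPM in any sorted vehicle sample. NQO1 was at 2.56 to 5.23 CPM in the sorted SD and 1.64 to 4.20 CPM in the sorted ACI vehicle samples, against 353, 356 and 268 CPM in whole-gland cells.

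TP63 fell in the sorted cells (SD -0.97, adjusted p = 0.0218, ACI -0.62, adjusted p = 0.037), from 62.7 to 85.6 CPM in SD vehicle samples to 25.9 to 55.4 CPM after TGFBRi. In whole-gland cells the vehicle rats stood at 14.9, 16.8 and 19 CPM. MYH11 also fell (SD -1.42, adjusted p = 0.0102, ACI -0.36, adjusted p = 0.0311). ACTA2 rose in SD (1.16, adjusted p = 0.0569) and did not pass in ACI (0.07, adjusted p = 0.754). Of the 15 contractile genes 4 rose and 6 fell in SD cells (background 14.9% raised, 14.0% lowered). In ACI cells 4 rose and 5 fell (background 15.9% raised, 17.8% lowered). SKI and SKIL fell in both (SD -1.70, adjusted p = 0.0215 and -1.47, adjusted p = 0.0177, ACI -0.77, adjusted p = 0.000306 and -0.34, adjusted p = 0.0298), and CCN2 fell in both (SD -1.58, adjusted p = 0.00725, ACI -2.47, adjusted p = 0.000203). Oxidative stress genes, lower in whole-gland basal cells, had 5 raised and 1 lowered of 14 in SD and 6 raised and none lowered in ACI cells. These counts stand against the same shares of all genes (SD 14.9% raised and 14.0% lowered, ACI 15.9% and 17.8%). LGR6 and FGF1 had log2 fold changes of -0.94, adjusted p = 0.0664 and -0.81, adjusted p = 0.0167 in SD, and -1.13, adjusted p = 9.39e-05 and -0.55, adjusted p = 0.00171 in ACI cells, opposite in sign to the whole gland.

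**Figure D5:**
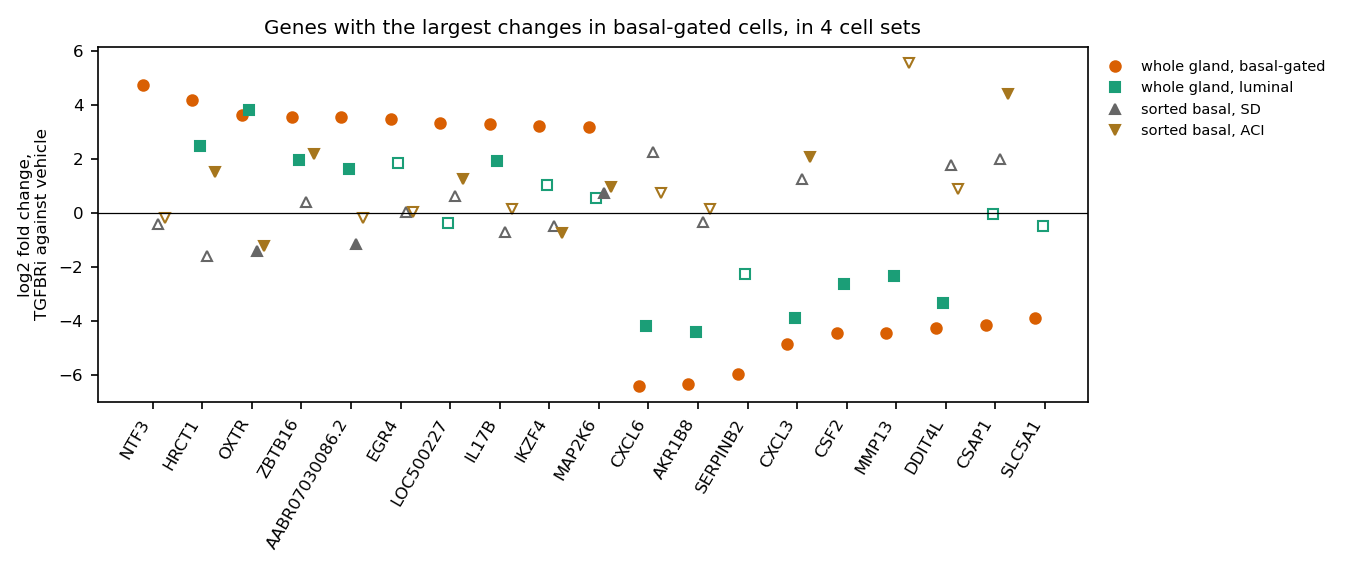
Log2 fold change (y axis, TGFBRi against vehicle) of the 10 most raised and 9 of the 10 most lowered genes of basal-gated cells, in those cells, in luminal cells of the same rats and in sorted basal cells of SD and ACI rats; filled symbols have an adjusted p of 0.1 or less, and genes not tested in a set have no symbol. OXTR is at 3.62 in basal-gated cells and at -1.39 (SD) and -1.23 (ACI) in sorted cells.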

How the data were processed

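The 9 whole-gland tables hold UMI counts per gene and cell (18237 gene rows). Per the labels and the study's methods, the authors aligned 5′ libraries to rn6 with Cell Ranger 7.0.0 and filtered cells and genes with Seurat 4.1.1 before these counts were deposited; the sorted libraries went through Cell Ranger 4.0.0. The members and gene lists were chosen with earlier results of these data known. The UMI counts of gated cells were summed per rat, the 6 gate genes with a row left out, and genes with at least 10 UMIs over the rats tested with edgeR 4.0.16 (TMM, robust quasi-likelihood F test, Benjamini-Hochberg adjusted p of 0.1 or less called). CPM are TMM-scaled, except in luminal cells, leukocytes, smooth muscle cells, cells at the edge of the gate and gate genes. The ratios of basal to luminal CPM thus set scaled against unscaled values. Standard errors are the log2 fold change over the root of F. DESeq2 1.42.0, other gates, filters, scaling, thinning to 1000 UMIs and leaving out each rat were alternatives. Shares were compared by exact permutation over 84 arrangements of rats. Named genes were the 10 per direction with the largest change among called, non-overlapping genes with a mean of at least 20 UMIs, and up to 5 list members per direction in order of p. Contractile genes, TGFβ ligands, receptors, SMADs and feedback genes, and TP63 were named whether or not they passed, while targets of TGFβ that did not pass are given by count. Sequences were read from RefSeq (GRCr8). The scripts were tested on simulated data. Table totals were 43110875 to 92699378 UMIs. Sorted luminal and bulk files were not used here, and some genes that the rule names are not reported here.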

Additional observations from a re-analysis of the deposited data

Results flagged for a closer look

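In 7 of 131 sets of values from the 6 treated rats, 1 rat stood apart from the others by Dixon's test, which chance gives in about 1 of 20 groups. The highest treated rat had TP63 at 58.21 CPM (others 43.91 to 47.41), ZBTB16 at 31.93 CPM (others 1.072 to 7.428), CXCL6 at 3.253 CPM (others 0.433 to 1.429), SERPINB2 at 0.4765 CPM (others 0) and CSF2 at 3.082 CPM (others 0 to 0.8124). The lowest treated rat had BAMBI at 38 CPM (others 67.01 to 77.25) and PROCR at 67.42 CPM (others 127.3 to 152.2).

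The drug effect differed between basal and luminal cells of the same rats, by the interaction in edgeR, for 1589 genes with a more positive and 2261 with a more negative effect in basal cells. It passed for 4 of the 10 most raised and 7 of the 10 most lowered genes, but with keratin-balanced cells for only 3 and 3. Of all genes 9.95% had a more positive and 14.2% a more negative effect, and 11.9% and 10.3% with keratin-balanced cells. The 20 genes were chosen for their large change in the same basal cells, which favours a difference in that direction. Their counts are thus a description and no test. For those that passed in both, over all gated cells, the log2 difference was 1.93 for AABR07030086.2 (adjusted p = 0.00989), 3.52 for LOC500227 (adjusted p = 0.00213) and 2.66 for MAP2K6 (adjusted p = 0.00925). It was -1.99 for AKR1B8 (adjusted p = 0.00141), -3.83 for SERPINB2 (adjusted p = 0.0657) and -2.16 for MMP13 (adjusted p = 0.0141). With keratin-balanced cells these last 3 were -2.59 (adjusted p = 0.0101), -3.94 (adjusted p = 0.0934) and -2.10 (adjusted p = 0.0884).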

How the results depend on the processing

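The difference in the basal share of basal plus luminal cells kept its sign but no longer passed with a keratin minimum of 10 (-12.1 points), no other marker UMI (-11.7), without cells with luminal keratins (-1.42), without the 6% of cells with most UMIs (-9.80), in keratin-balanced cells (-10.1, or -6.10 with the cells left out counted as luminal) and with the replicate block over rats 1, 2 and 4 (-14.5, exact p = 0.25, the smallest that 3 pairs allow). Leaving out 1 rat gave -17.5 to -6.78. The share of all cells turned to 0.214 points higher (exact p = 0.595) without cells with luminal keratins. Raised and lowered genes numbered 825 and 828 without cells with luminal keratins (10460 tested) and 1820 and 1789 after thinning to 1000 UMIs, on fewer cells or UMIs by construction. Leaving out 1 rat gave 2147 to 3043 raised and 2341 to 3155 lowered genes in basal cells. For the interaction it gave 850 (without vehicle rat 1) to 1718 more positive and 1430 (without vehicle rat 2) to 2185 more negative genes, and for sorted SD cells 109 to 2426 raised and 167 to 2328 lowered, the lowest without vehicle rat 3. In sorted ACI cells DESeq2 gave 2104 raised and 1746 lowered genes. Replicate numbers did not pair the rats (r = 0.2025, -0.2721 and 0.1007 over genes), and the replicate block gave 2209 raised and 2556 lowered genes, against 2314 and 2623 in the same 6 rats without it. Of 4208 values for 128 named genes under 33 settings, 3898 kept their side of the threshold (with the direction kept wherever the gene passed), 271 lost the call (49 of them without cells with luminal keratins), 37 gained it and for 2 a gene that had passed turned its sign: CCN2 at -0.548 (adjusted p = 0.559) without cells with luminal keratins, and CSAP1 at 1.99 (adjusted p = 0.150) in keratin-balanced cells without vehicle rat 4. The cause was not tested. Depth limits genes with few UMIs, such as SERPINB2 and NTF3, and rats with few cells.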
